A study of Mus musculus with 6 samples.

Results

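The respiratory chain genes of mouse cardiac leukocytes were followed here across cell types and 3 groups of libraries. They were taken by symbol from the gene list of the deposited matrices: the nuclear Nduf subunits of complex I, the Sdh subunits of complex II, the Uqcr subunits of complex III, the subunits Cox4i1 and Cox5 to Cox8 of complex IV, the Atp5 genes of complex V, and the mt-Nd, mt-Co, mt-Cytb and mt-Atp genes of the mitochondrial genome. With a minimum of 100 UMIs (unique molecular identifiers, each standing for 1 captured RNA molecule) over the 6 matrices, 93 of 95 matching symbols were kept, out of 32285 genes listed and 14876 genes that reached the same minimum. Cox7b2 with 1 UMI and Cox8c with 0 were left out. The members comprised 80 nuclear genes, of which 36 belong to complex I, 4 to complex II, 8 to complex III, 15 to complex IV and 17 to complex V, and all 13 protein-coding genes of the mitochondrial genome. Counts per complex follow the symbols, so Ndufa4, now placed with complex IV, is counted with complex I.

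Hearts of C57Bl6J mice had received a sham procedure or 1 dose of 12 Gy from a small animal irradiator, and CD45+ cells (leukocytes, by their shared surface marker) were taken at 28 days for droplet 3' single-cell RNA sequencing. There were 2 sham wild-type libraries, 2 irradiated wild-type libraries and 2 irradiated libraries labelled STING KO, whose titles name Tmem mice. STING, encoded by Tmem173, relays the sensing of DNA in the cytosol. No sham STING KO library was analysed here, so the genotype comparison holds in irradiated hearts. The labels give no age, sex, animal, pool or batch, and p-values therefore measure only how far these libraries vary, and that variation may be technical.

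The respiratory chain moves electrons from NADH and succinate to oxygen through complexes I to IV of the inner mitochondrial membrane, and complex V, the ATP synthase, uses the resulting proton gradient to make ATP. Complex II is built from nuclear subunits alone. The mitochondrial genome encodes part of the core of complexes I and III, the core of complex IV and part of the membrane portion of complex V. It is transcribed from both strands as long precursors, which are then cut into single RNAs. Several complex IV subunits exist as general isoforms (Cox6a1, Cox7a2, Cox8a) and as isoforms of heart and skeletal muscle (Cox6a2, Cox7a1, Cox8b). Among leukocytes, neutrophils are known to hold few mitochondria and to rely largely on glycolysis, whereas tissue macrophages use oxidative phosphorylation more.

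The DNA before the start sites of the nuclear members was read for the motifs of NRF1 and of ETS factors, known regulators of this gene class, in the RefSeq promoter table of GRCm38.p6. Of the 80 nuclear members, 66 were found, with 71 start sites. Within 250 bases before the start and on both strands, the NRF1 motif (GCGCA, then any base, then GCGC) was found at 14 of 71 starts (19.7%), against 3.74% of all 32851 starts in the table. The ETS motif CCGGAAG was found at 12 starts (16.9%), against 6.91%, and 1 or both motifs at 23 starts (32.4%), against 10.1%. The TATAAA motif was found at 7 starts (9.86%), against 12.4%. The median number of CpG pairs was 14 for the members and 6 for all starts. These counts describe letters in a window, not bound sites. The 5 stretches of 100 bases below show 3 general subunits and 2 muscle isoforms, since both kinds return in the results on cell types. Each stretch lies upstream of the outermost annotated start and is written 5′ to 3′ on the strand of its gene, and capitals mark an NRF1 motif in Cox6a1 and Ndufs5 and an ETS motif, read on the other strand, in Uqcrh. The stretches of Cox7a1 and Cox8b hold neither motif. The first 3 were shown because they carry a motif, and the windows of the general isoforms Cox7a2 and Cox8a hold neither, so the stretches set no contrast between general and muscle isoforms.
Cox6a1 (chr5:115348982-115349081, minus strand, GRCm38.p6): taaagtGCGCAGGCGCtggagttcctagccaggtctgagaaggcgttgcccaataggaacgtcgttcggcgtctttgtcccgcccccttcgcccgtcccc
Ndufs5 (chr4:123718203-123718302, minus strand, GRCm38.p6): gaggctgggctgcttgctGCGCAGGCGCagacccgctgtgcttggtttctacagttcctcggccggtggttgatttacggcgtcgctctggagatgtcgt
Uqcrh (chr4:116075072-116075171, minus strand, GRCm38.p6): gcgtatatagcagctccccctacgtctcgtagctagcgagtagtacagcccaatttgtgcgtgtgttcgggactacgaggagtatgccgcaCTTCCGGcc
Cox7a1 (chr7:30184044-30184143, plus strand, GRCm38.p6): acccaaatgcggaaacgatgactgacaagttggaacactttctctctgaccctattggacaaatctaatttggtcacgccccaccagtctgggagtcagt
Cox8b (chr7:140900447-140900546, minus strand, GRCm38.p6): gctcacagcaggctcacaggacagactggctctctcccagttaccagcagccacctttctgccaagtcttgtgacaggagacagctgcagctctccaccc
In the 250 bases before their starts, Cox6a1 has 26 CpG pairs, Ndufs5 18 and Uqcrh 11, while Cox7a1 has 4 and Cox8b 1. Cox7a2 has 14 and Cox8a 11.

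The libraries held between 31650962 and 59675213 UMIs in 4556 to 9319 barcodes, 45904 in all, and 31180 cells were kept. Median depth of the kept cells was lower in the sham libraries, at 4389 and 4581 UMIs, than in the others, at 5503 to 6771. Pairs of libraries shared at most 28 barcodes. The usual limit on mitochondrial UMIs, 10% per cell, acts on the mitochondrial members themselves. Of barcodes with at least 200 genes, sham libraries lost 22.2% and 24.1% to it, irradiated wild-type ones 22.3% and 30.8%, and those labelled STING KO 27.1% and 31.5%. Barcodes above 20% made up 6.68% and 8.20%, 8.86% and 11.2%, and 15.1% and 18.4% in the same order, so they were more frequent in the libraries labelled STING KO than in any other. Tmem173 was not lost in the libraries labelled STING KO: in macrophage-like cells it stood at 51.2 and 46.1 CPM (UMIs per 1000000) in sham, 59.2 and 55.4 in irradiated wild type, and 49.1 and 46.1 in the libraries labelled STING KO. The last lay below irradiated wild type (log2 difference -0.27, edgeR adjusted p 0.156) and overlapped sham. A 3' tag can lie outside a deleted stretch, so this count does not test the label. Cells were clustered without any member gene. Classes named from markers were macrophage-like (10552 cells), neutrophil-like (3762), B cell-like (3421), monocyte-like (1916), T cell-like (1749), endothelial-like (1610), cycling (1277), NK cell-like (1094), dendritic cell-like (677) and fibroblast-like (476). Endothelial-like and fibroblast-like cells are not leukocytes, although the labels give CD45+ cells.

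The nuclear and the mitochondrially encoded members ordered the cell types differently. Neutrophil-like cells were at the bottom of both orders. The nuclear members summed to between 0.816% and 0.929% of nuclear UMIs in the 6 neutrophil-like sums. The sums ran from 1.28% to 1.62% in B cell-like, 1.47% to 1.69% in macrophage-like, 1.82% to 2.02% in monocyte-like, 1.83% to 2.11% in endothelial-like and 1.91% to 2.10% in NK cell-like cells. B cell-like and macrophage-like ranges overlapped, as did those of monocyte-like, endothelial-like and NK cell-like cells, while the neutrophil-like range lay apart from the others named here. The 13 mitochondrial genes took 1.69% to 3.66% of all UMIs in neutrophil-like cells, 3.81% to 5.80% in NK cell-like, 4.14% to 5.80% in endothelial-like, 4.44% to 5.19% in monocyte-like, 6.38% to 7.01% in macrophage-like and 6.23% to 7.22% in B cell-like cells. B cell-like cells thus had a low nuclear and a high mitochondrial sum. On the log2 scale, the ratio of the mitochondrial to the nuclear sum lay between 2.21 and 2.60 in B cell-like cells, 2.01 and 2.29 in macrophage-like cells and 1.02 and 1.55 in NK cell-like cells. Its mean was 1.37 ± 0.092 (SD, n = 6) in monocyte-like cells. The limit on mitochondrial UMIs bears on these levels: the macrophage-like mean of the mitochondrial share was 6.67% with it and 8.81% without it.

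**Figure D1:**
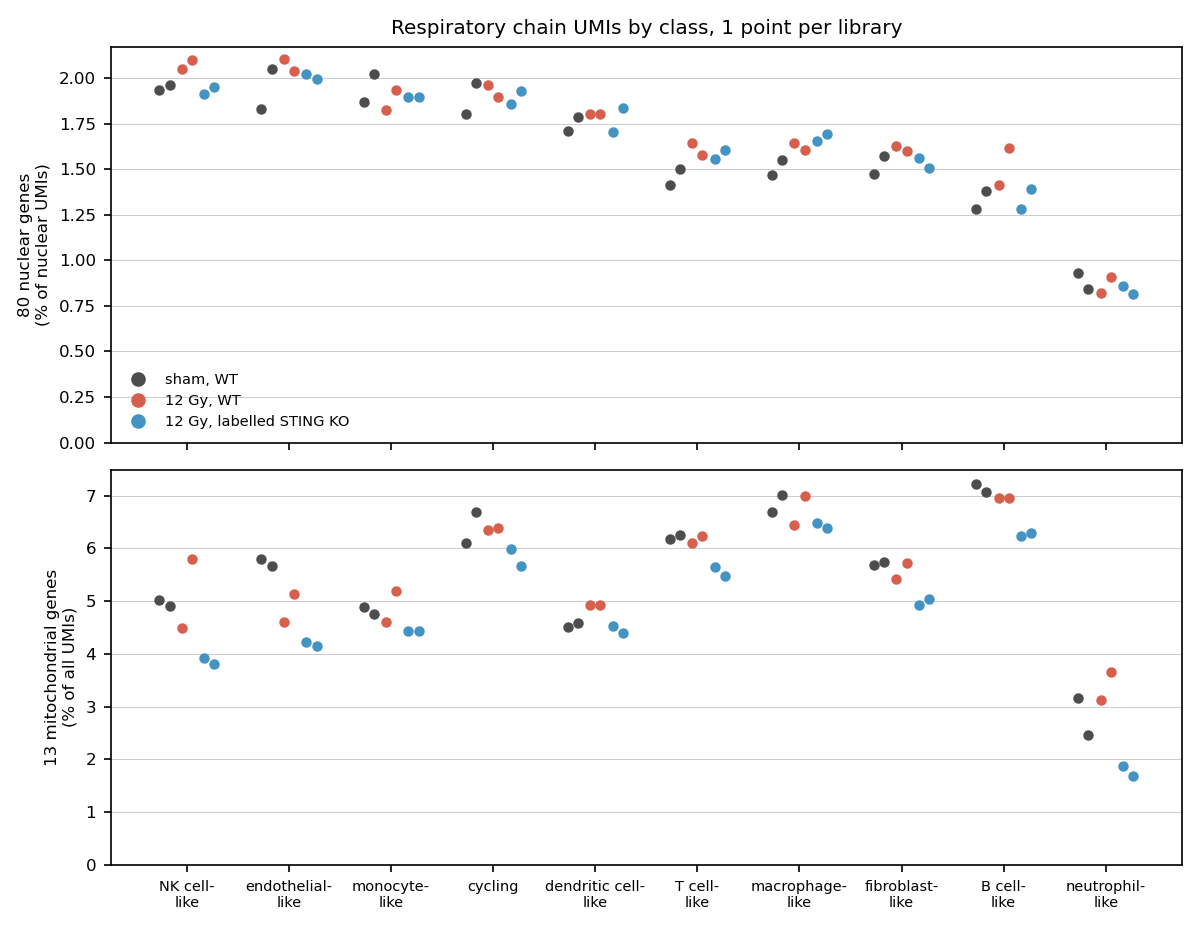
Share of UMIs from the 80 nuclear members (percent of nuclear UMIs) and from the 13 mitochondrial genes (percent of all UMIs) in each cell class, 1 point per library, coloured by group. Neutrophil-like cells are lowest in both panels, with 0.816% to 0.929% nuclear and 1.69% to 3.66% mitochondrial, and B cell-like cells combine a low nuclear with a high mitochondrial share.

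Member by member, neutrophil-like cells had the lowest class mean for 13 of 13 mitochondrial and 67 of 80 nuclear members. The same count was not made over all genes, so it is not read as particular to the members. In the fit over UMI totals alone, given below, 67.6% of all genes were lower in neutrophil-like than in macrophage-like cells. The highest mean of a nuclear member was in endothelial-like cells for 29, in NK cell-like cells for 24, in cycling cells for 11 and in monocyte-like cells for 10. For mitochondrial genes it was in B cell-like cells for 6, macrophage-like cells for 5 and fibroblast-like cells for 2. The general isoform Cox8a, a small subunit of complex IV, was highest in NK cell-like cells at a mean of 992 CPM, with a range apart from the next class, monocyte-like at 677, and its lowest mean was in macrophage-like cells at 490. The muscle isoforms Cox6a2 and Cox7a1 were highest in endothelial-like cells at 54.7 and 41.0 CPM, apart in range from macrophage-like cells at 15.1 and 17.1. Ndufa4 fell from 478 CPM in endothelial-like to 69.8 in neutrophil-like cells, and Ndufv1, which carries the NADH-binding site of complex I, from 84.5 in fibroblast-like to 11.4 in neutrophil-like cells. Both neutrophil-like ranges lay below that of the next lowest class. Sdha and Sdhb, the catalytic subunits of complex II, were lowest in neutrophil-like cells as well, at 53.6 and 54.4 CPM, but in a range that met that of the next class.

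Each class was then compared with macrophage-like cells, with library as a block. These fits use TMM scaling across both classes. It levels a mean of the gene differences taken without the extreme genes, so the median gene can still differ between classes. The CPM levels above and below are scaled within a class and stay close to shares of its UMIs. Against UMI totals alone, the scaling between classes adds 0.81 to every log2 difference of neutrophil-like cells, 0.12 for monocyte-like and 0.10 for B cell-like cells, and -0.44 for endothelial-like cells. A fitted difference therefore need not equal the ratio of the CPM printed beside it, and for each class the split over UMI totals alone, a fit chosen after seeing the data, is given too.

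Neutrophil-like cells had 57 members lower and 14 higher with the scaling, and 85 lower and 4 higher over UMI totals. The fit across all genes called 48.0% lower and 31.8% higher (79.8% in either direction), and the median of all genes was -0.47 on the log2 scale, beside -0.34 for nuclear and -0.65 for mitochondrial members. Over UMI totals 67.6% of all genes were lower and 18.7% higher, and the 3 medians were -1.32, -1.16 and -1.46. The sign of 24 of 80 nuclear members differed between the 2 fits, and that of no mitochondrial member did. With the scaling, of complex I, 22 of 36 nuclear subunits were lower and 4 higher, and over UMI totals 33 were lower and 1 higher. All 13 mitochondrial genes were lower in both fits. Ndufc2, an accessory subunit of the membrane arm of complex I, stood at 22.8, 12.6, 18.0, 11.9, 17.0 and 17.6 CPM in neutrophil-like cells, in the order sham, irradiated wild type and labelled STING KO, and at 144 to 174 in macrophage-like cells. No library overlapped between the classes on this scale (scaled log2 difference -2.47, SE 0.14, and -3.31 over UMI totals). Ndufa5, Ndufa9 and Ndufa11 of complex I had scaled differences of -2.34, -2.19 and -2.20, and Sdhc, a membrane anchor of complex II, of -1.95. The 14 members that were higher with the scaling included Atp5l and Atp5md, small membrane subunits of the ATP synthase (1.25 and 1.22), Cox8a (1.17) and, in complex I, Ndufa3 (1.04), Ndufb9 (0.94) and Ndufa7 (0.73), each with adjusted p under the 0.05 threshold. Over UMI totals the first 4 of these stayed higher, at 0.44, 0.41, 0.35 and 0.23, while Ndufb9 (0.12, adjusted p 0.258) and Ndufa7 (-0.09, adjusted p 0.423) were not called. Median depth in neutrophil-like cells was 1498 to 2392 UMIs per cell.

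In monocyte-like cells 57 members were higher than in macrophage-like cells and 20 lower, where 28.5% of all genes were higher and 32.1% lower (60.6% in either direction). Over UMI totals 47 were higher and 23 lower, where 23.2% and 39.2% of all genes were. All 13 mitochondrial genes were among the lower ones in both fits. With the scaling, the 57 included 24 of 36 nuclear subunits of complex I, 5 of 8 of complex III, 12 of 15 of complex IV and 16 of 17 of complex V, but 0 of 4 of complex II. Uqcrfs1, the Rieske iron-sulfur protein of complex III, stood at 136 to 164 CPM in monocyte-like and 67.7 to 80.1 in macrophage-like cells, without overlap (log2 difference 1.09, SE 0.062). Ndufa6 differed by 0.99, Uqcrh, the hinge protein of complex III, by 0.78, and Atp5c1, the gamma subunit of the ATP synthase stalk, by 0.78. The mitochondrial genes mt-Nd3, mt-Nd2 and mt-Nd1 differed by -0.77, -0.75 and -0.63. The muscle isoforms were lower as well, Cox8b by -2.04, Cox6a2 by -1.97 and Cox7a1 by -1.74. The nuclear median was 0.31 and the mitochondrial median -0.49, beside -0.07 for all genes, and over UMI totals they were 0.19, -0.61 and -0.20.

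In B cell-like cells 16 members were higher and 49 lower than in macrophage-like cells, where 35.0% of all genes were higher and 39.0% lower (74.0% in either direction). Over UMI totals 12 were higher and 61 lower, where 31.3% and 42.4% of all genes were. With the scaling, nuclear complex I had 21 of 36 subunits lower and 3 higher, complex II 3 of 4 lower and complex IV 11 of 15 lower. Among the mitochondrial genes, all 3 of complex IV were higher (2 over UMI totals, without mt-Co3), 5 of the 7 of complex I were lower and 2 higher. Uqcr11, a small subunit of complex III, stood at 75.1 to 165 CPM in B cell-like and 237 to 269 in macrophage-like cells (log2 difference -1.16, SE 0.11), and Sdhc differed by -1.15. Uqcrh (0.68), Cox7a2l, a factor that joins complexes III and IV (0.59), Uqcrfs1 (0.57), Ndufa6 (0.52) and mt-Nd6 (0.85) were higher. Cox7a1, Cox6a2, Cox8b and the testis-type isoform Cox6b2 were lower by -2.61, -2.43, -2.08 and -2.42.

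The direction of the nuclear part in endothelial-like cells depended on the scaling. With it, 17 members were higher and 45 lower than in macrophage-like cells, where 35.7% of all genes were higher and 37.5% lower (73.2% in either direction). Over UMI totals 61 were higher and 13 lower, where 54.7% of all genes were higher and 23.6% lower. The nuclear median was -0.08 with the scaling and 0.36 over UMI totals, beside -0.03 and 0.41 for all genes, and 45 of 80 nuclear members changed sign. Of the mitochondrial genes 12 of 13 were lower in both fits, with medians of -0.88 and -0.44. mt-Co3, a core subunit of complex IV, stood at 7500 to 10840 CPM in endothelial-like and 12793 to 15429 in macrophage-like cells, without overlap (scaled log2 difference -1.08, SE 0.056, and -0.64 over UMI totals). mt-Co1, mt-Nd2, mt-Nd3, mt-Co2 and mt-Nd4 differed by between -0.94 and -0.90 with the scaling. mt-Nd6 differed by 0.02, and by 0.46 over UMI totals, where it was called higher. Ndufa8, an accessory subunit of complex I, stood at 194 to 256 CPM in endothelial-like and 66.0 to 93.7 in macrophage-like cells (1.07, SE 0.063, and 1.51 over UMI totals), and Atp5j, coupling factor 6 of the ATP synthase stalk, was higher by 0.91 and 1.35. The muscle isoforms Cox8b, Cox6a2 and Cox7a1 were higher by 1.68, 1.37 and 0.75 with the scaling and by 2.12, 1.81 and 1.18 over UMI totals. Summed cardiomyocyte markers (10 of 10 detected) stood at 562 to 1374 per 1000000 UMIs in endothelial-like cells, 182 to 266 in macrophage-like and 49.8 to 107 in monocyte-like cells, and the order of the 3 muscle isoforms' sum followed them, at 87.2 to 221, 30.9 to 49.0 and 6.49 to 14.2. The part of cardiomyocyte RNA in these isoform levels was not tested.

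Irradiated against sham wild type, the nuclear members had medians above 0 in macrophage-like, B cell-like and endothelial-like cells and below 0 in monocyte-like and neutrophil-like cells, and few members passed the test. Over all kept cells 0 of 93 members were called, where 0.0127% of all 15714 genes were, and 3611 genes had an unadjusted p under 0.05. DESeq2 called 9 members, but its share over all genes is not given here, so the 9 are not read against the edgeR share. The median difference was 0.21 for the nuclear and 0.04 for the mitochondrial members, beside -0.01 for all genes. Of the 80 nuclear members, 65 were higher in both irradiated libraries than in both sham libraries, where 29.1% of all genes were. Differences by class are needed here, since the mix of classes differs between libraries: summed neutrophil markers over all kept cells ran from 3996 to 41184 CPM, the highest in a sham library.

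In macrophage-like cells 2 members rose after irradiation, Cox5a and Ndufa8, and none fell, where 6.21% of all 12450 genes tested were called. The share of members called lay below that of all genes, so the count itself is no result about the members. Cox5a, a nuclear subunit of complex IV (GRCm38 chromosome 9, 57521274 to 57532426), stood at 207 and 220 CPM in sham, 271 and 292 in irradiated wild type, and 247 and 279 in the libraries labelled STING KO. Both irradiated wild-type values lay above both sham values (log2 difference 0.40, SE 0.093, edgeR adjusted p 0.0458). Ndufa8 (chromosome 2, 36036326 to 36049406) stood at 66.0 and 73.3, 93.7 and 89.1, and 77.2 and 82.2 CPM in the same order (0.39, SE 0.088, adjusted p 0.0427). The nuclear median was 0.13 with 66 of 80 above 0, and the mitochondrial median was -0.04. Of the 80 nuclear members, 49 were higher in both irradiated libraries than in both sham libraries, where 26.7% of all genes were. Within macrophage-like clusters 1 and 3, the nuclear share of nuclear UMIs was higher in the irradiated wild-type libraries too. It was 1.31% and 1.40% in sham against 1.49% and 1.44% in cluster 1, and 1.46% and 1.52% against 1.70% in both libraries in cluster 3. The shares of clusters 4 and 15, which also had enough cells, are not given here, so the rise is not stated for every cluster. The calls did not hold without any 1 library: 0 of these 2 members were called without either sham library, without irradiated wild-type replicate 1 or without either library labelled STING KO, and without irradiated wild-type replicate 2 the count was 1, in the lower direction. Cluster 15, an interferon-led macrophage-like cluster, had 24 and 28 cells in sham, 191 and 199 in irradiated wild type and 50 and 120 in the libraries labelled STING KO, and monocyte markers summed in macrophage-like cells to 121 and 101, 466 and 386, and 455 and 511 CPM. Their part in the members' values was not tested.

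**Figure D2:**
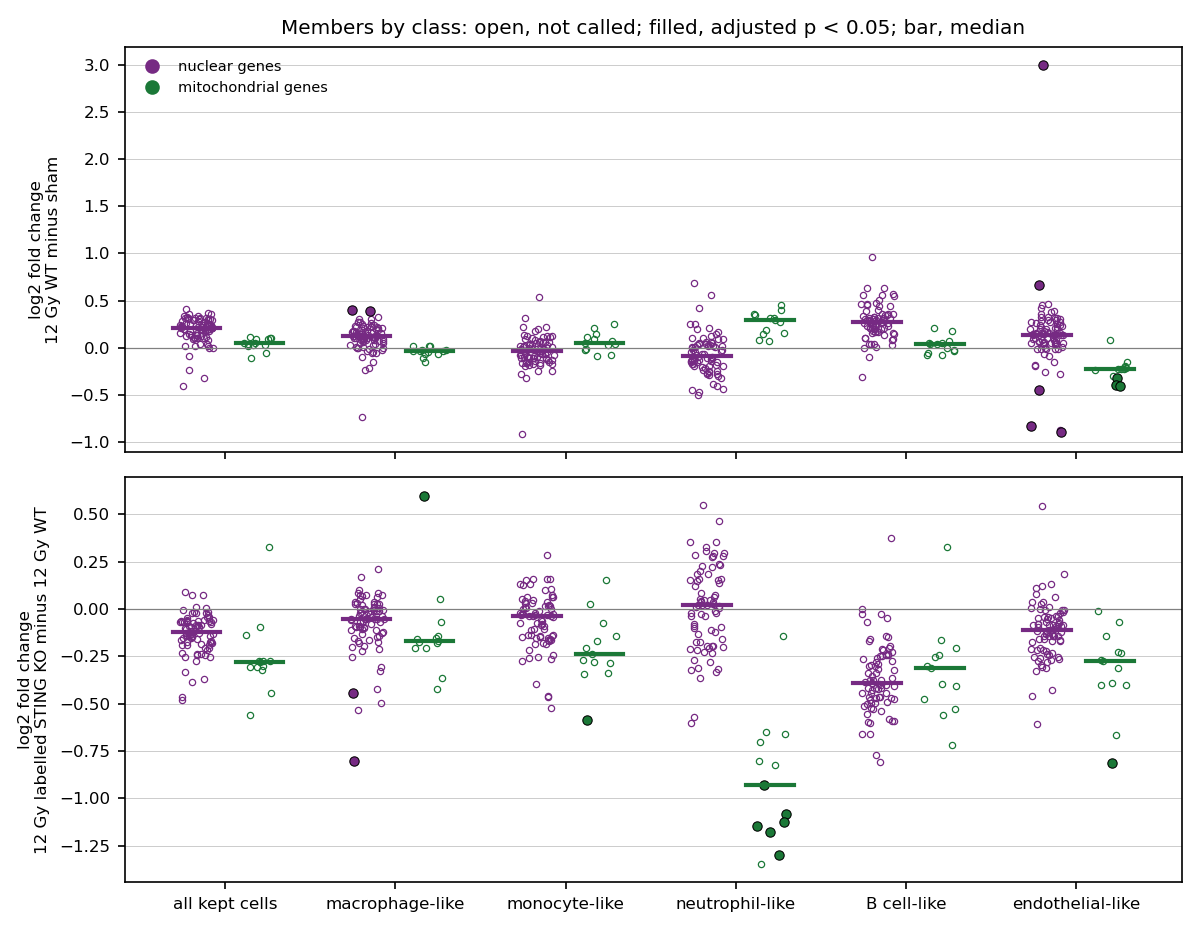
Log2 difference of every member between irradiated and sham wild type, and between the irradiated libraries labelled STING KO and irradiated wild type, by class, with nuclear and mitochondrial members in separate colours and called members marked. The mitochondrial members of neutrophil-like cells lie lowest in the genotype comparison, with a median of -0.93, and Cox6b2 in endothelial-like cells lies highest in the radiation comparison, at 2.995.

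B cell-like cells showed the largest nuclear median after irradiation among the 5 classes fitted, 0.27 with 73 of 76 tested above 0, but 0 members were called, where 0.0112% of all genes were and 934 genes had an unadjusted p under 0.05. DESeq2 called 0 members too. In 46 of 80 nuclear members both irradiated libraries lay above both sham libraries, where 19.7% of all genes did. Ndufa4 stood at 172 and 186 CPM in sham, 222 and 305 in irradiated wild type, and 182 and 213 in the libraries labelled STING KO (log2 difference 0.57, SE 0.19, adjusted p 0.394). Ndufb2, an accessory subunit of complex I, had the largest difference, 0.96 (SE 0.24, adjusted p 0.325). The 2 irradiated wild-type libraries differed from each other. Without replicate 1, 15 members rose, where 7.48% of all 9425 genes were called, and without replicate 2 the nuclear median was 0.08. Replicate 2 had B cell-like cells of a median 4175 UMIs, against 2067 to 2975 in the other 5 libraries, and plasma cell markers summed to 1484 CPM in it, against 335 in replicate 1, 270 and 322 in sham, and 304 and 1014 in the libraries labelled STING KO. The part of plasma cells and of depth in this result was not tested.

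Monocyte-like cells had 0 members called after irradiation, where 0.138% of genes were called and 604 genes had an unadjusted p under 0.05. Neutrophil-like cells also had 0, where 0% were called and 437 had an unadjusted p under 0.05, and DESeq2 called 0 members in both. In neutrophil-like cells the mitochondrial median was 0.30 and the nuclear median -0.09.

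Endothelial-like cells had 8 members called after irradiation, 2 higher and 6 lower, where 8.32% of all 10521 genes were called. The share of members called lay near that of all genes, so this count is no result about the members as a set. Of the called members, the 3 mitochondrial ones were all of complex I and lower. mt-Nd3 stood at 1980 and 2061 CPM in sham, 1404 and 1659 in irradiated wild type, and 917 and 828 in the libraries labelled STING KO (log2 difference of irradiated and sham wild type -0.40, SE 0.10, adjusted p 0.0337). mt-Nd2 stood at 3272 and 3329, 2475 and 2793, and 2044 and 1942 CPM (-0.33, SE 0.085, adjusted p 0.0387), and mt-Nd5 at 458 and 462, 334 and 361, and 344 and 319 (-0.40, SE 0.11, adjusted p 0.0382). In each of these genes both irradiated groups lay wholly below sham. Of the 13 mitochondrial genes, 12 were lower in both irradiated wild-type libraries than in both sham libraries, where 26.6% of all genes were, and mt-Nd6 was the exception. The mitochondrial share of all UMIs was 5.80% and 5.66% in sham, 4.60% and 5.15% in irradiated wild type, and 4.23% and 4.14% in the libraries labelled STING KO. It stayed ordered in this way without the limit on mitochondrial UMIs, at 7.71% and 7.35%, 5.58% and 5.99%, and 4.54% and 4.64%. At a limit of 5% the mitochondrial median came to -0.05, at 10% to -0.23, at 20% to -0.32 and with no limit to -0.39.

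**Figure D3:**
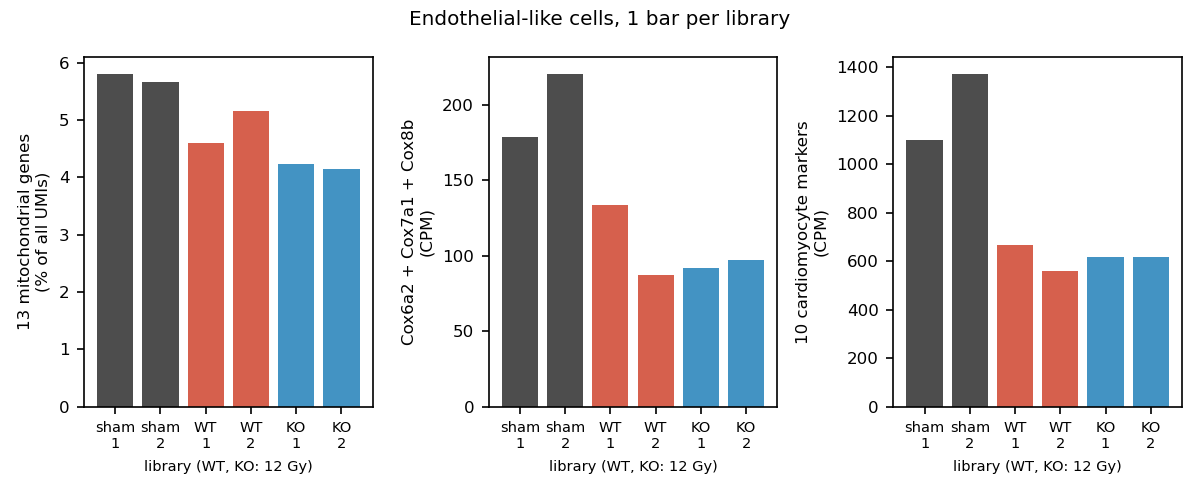
Share of the 13 mitochondrial genes (percent of all UMIs), summed muscle isoforms and summed cardiomyocyte markers (both per 1000000 UMIs) in endothelial-like cells, 1 bar per library, coloured by group. The mitochondrial share falls from 5.80% and 5.66% in sham to 4.60% and 5.15% in irradiated wild type, and the muscle isoforms and cardiomyocyte markers are lower in every irradiated library than in sham.

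Of the 5 nuclear members called in endothelial-like cells, 2 were muscle isoforms and were lower. Cox6a2 stood at 69.1 and 89.3 CPM in sham, 50.4 and 35.8 in irradiated wild type, and 41.2 and 42.2 in the libraries labelled STING KO (-0.90, SE 0.19, adjusted p 0.0139). Cox8b stood at 65.6 and 60.7, 43.9 and 27.7, and 21.9 and 24.8 (-0.84, SE 0.21, adjusted p 0.0302), and Cox7a1 differed by -0.88 with adjusted p 0.0607. Cardiomyocyte markers moved with them: all 10 were lower and called, and their sum was 1102 and 1374 per 1000000 UMIs in sham, 668 and 562 in irradiated wild type, and 620 and 616 in the libraries labelled STING KO. Of the cycling markers 5 of 6 rose, with sums of 79.0 and 45.5, 243 and 183, and 279 and 385 CPM. The part of cardiomyocyte RNA and of cycling cells in the endothelial-like results was not tested. Median depth was 4694.5 and 4467 UMIs per cell in sham and 6292 to 8641.5 in the other libraries. Cox7a2l fell from 389 and 390 CPM to 278 and 293 (-0.45, SE 0.11, adjusted p 0.0285), and Ndufb6, an accessory subunit of complex I, rose from 73.4 and 80.1 to 122 in both libraries (0.67, SE 0.13, adjusted p 0.0110).

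Cox6b2, the isoform of the complex IV subunit Cox6b known from testis (chromosome 7, 4751792 to 4753094), showed the largest rise of any member after irradiation. Among the named classes its mean was highest in cycling cells, at 17.6 CPM, and next in dendritic cell-like cells, at 15.1. Cycling markers rose in endothelial-like cells as given above, and their part in the Cox6b2 result was not tested. In endothelial-like cells Cox6b2 had 1 and 2 UMIs in sham, 17 and 16 in irradiated wild type, and 81 and 37 in the libraries labelled STING KO, or 0.71 and 1.21, 9.20 and 7.16, and 12.97 and 10.4 CPM. The groups did not overlap (log2 difference 2.995, SE 0.61, adjusted p 0.0120). From the pooled UMIs the ratio of irradiated to sham wild type was 8.26, with an exact 95% interval of 2.59 to 42.1 that covers counting error only. In macrophage-like cells it stood at 9.63 and 9.71 CPM in sham, 4.54 and 6.89 in irradiated wild type, and 6.83 and 6.56 in the libraries labelled STING KO, so it did not follow the endothelial-like pattern. The difference between both classes' radiation effects was 3.75 on the log2 scale (SE 0.66, edgeR adjusted p 0.0101). Cox6b2 was the 1 member called in that test, where 1.73% of all 13530 genes were, so the count is no result about the members as a set. Without either sham library that call was lost. Over UMI totals alone 3 members were called in that test. The same test called 0 members for neutrophil-like cells, where 1.14% of genes were called and 949 had an unadjusted p under 0.05, and 0 for B cell-like cells, where 0.554% were called and 1068 had an unadjusted p under 0.05.

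The endothelial-like count depended on single libraries. Leaving out sham replicate 1 gave 2, all lower, and leaving out sham replicate 2 gave 4, all higher. Leaving out an irradiated wild-type library gave 5 (replicate 1) or 14 (replicate 2), and leaving out either library labelled STING KO gave 4. With a limit of 5% mitochondrial UMIs it was 0, and with no limit 20, of which 11 were mitochondrial. The shares of all genes called in these fits are not given here, so the counts are not read as results about the members.

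The libraries labelled STING KO were compared with irradiated wild type, whose 2 libraries also enter the comparison with sham, so the 2 sets of differences share samples. Over all kept cells 0 members were called, where 0.0255% of genes were and 2277 had an unadjusted p under 0.05. DESeq2 called 4 members, but its share over all genes is not given here, so the 4 are not read against the edgeR share. The nuclear median was -0.12 and the mitochondrial median -0.28. TMM scaling, against a plain count per 1000000, moved the median of all genes by -0.14 in all kept cells, -0.12 in macrophage-like cells and -0.17 in B cell-like cells. The nuclear medians over all kept cells, in macrophage-like cells (-0.05) and in monocyte-like cells (-0.04) change sign without it, to 0.01, 0.06 and 0.05, and these directions are read relative to the shift.

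Neutrophil-like cells had 6 members lower in the libraries labelled STING KO and 0 higher, where 0.199% of all 6528 genes were called. All 6 were mitochondrial: mt-Nd1, mt-Nd2, mt-Nd3 and mt-Nd4 of complex I, mt-Cytb of complex III and mt-Co3 of complex IV. mt-Nd3 stood at 891 and 734 CPM in sham, 987 and 1072 in irradiated wild type, and 446 and 391 in the libraries labelled STING KO (-1.30, SE 0.17, adjusted p 0.0119). mt-Nd1 stood at 1520 and 1230, 1580 and 1920, and 798 and 751 (-1.18, SE 0.17, adjusted p 0.0172), and mt-Cytb, cytochrome b, at 2976 and 2515, 3014 and 3800, and 1681 and 1540 (-1.08, SE 0.17, adjusted p 0.0262). In these genes the libraries labelled STING KO lay below the other 4. mt-Nd4, mt-Nd2 and mt-Co3 differed by -1.14, -1.12 and -0.93, with adjusted p between 0.0172 and 0.0365. The remaining mitochondrial genes were not called: mt-Atp8 differed by -1.35 (adjusted p 0.163), mt-Atp6 by -0.83 (0.0619), mt-Co2 by -0.80 (0.0713), mt-Nd4l by -0.70 (0.450), mt-Co1 by -0.66 (0.185), mt-Nd5 by -0.65 (0.393) and mt-Nd6 by -0.14 (0.971). The calls also rest on TMM scaling. Over UMI totals alone 0 members were called, where 0.0460% of all genes were: mt-Nd3 differed by -1.32 (adjusted p 0.0555), mt-Nd1 by -1.20 (0.0754) and mt-Co3 by -0.95 (0.104), and the mitochondrial median was -0.95 against -0.93 with the scaling. Of 13 mitochondrial genes 12 were lower in both libraries labelled STING KO than in both irradiated wild-type libraries, where 19.7% of all genes were.

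The nuclear members of neutrophil-like cells did not move with the mitochondrial ones. Their median was 0.02, 0 of 76 tested were called, and they summed to 0.822% and 0.907% of nuclear UMIs in irradiated wild type and 0.858% and 0.816% in the libraries labelled STING KO. The mitochondrial share was 3.17% and 2.46% of all UMIs in sham, 3.12% and 3.66% in irradiated wild type, and 1.87% and 1.69% in the libraries labelled STING KO. Without the limit on mitochondrial UMIs it was 5.13% and 3.46%, 4.38% and 5.33%, and 2.62% and 2.38%, again lowest in the libraries labelled STING KO. Barcodes of this class above the limit made up 11.2% and 6.6%, 10.4% and 11.0%, and 4.7% and 4.1%. Median depth was 1620 and 2286 UMIs per cell in sham, 1765.5 and 1498 in irradiated wild type, and 2392 and 2098 in the libraries labelled STING KO. Neutrophil markers summed to 116681 and 249190 CPM in sham, 147897 and 148123 in irradiated wild type, and 167965 and 183403 in the libraries labelled STING KO, and macrophage markers to 1428 and 900, 1357 and 1279, and 810 and 1008. The part of depth and of other cells in the result was not tested. The count of 6 was 0 without irradiated wild-type replicate 2 or without either library labelled STING KO, 9 without sham replicate 1, and 1 with doublets kept, while the mitochondrial median stayed between -1.03 and -0.68 in these 5 fits.

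**Figure D4:**
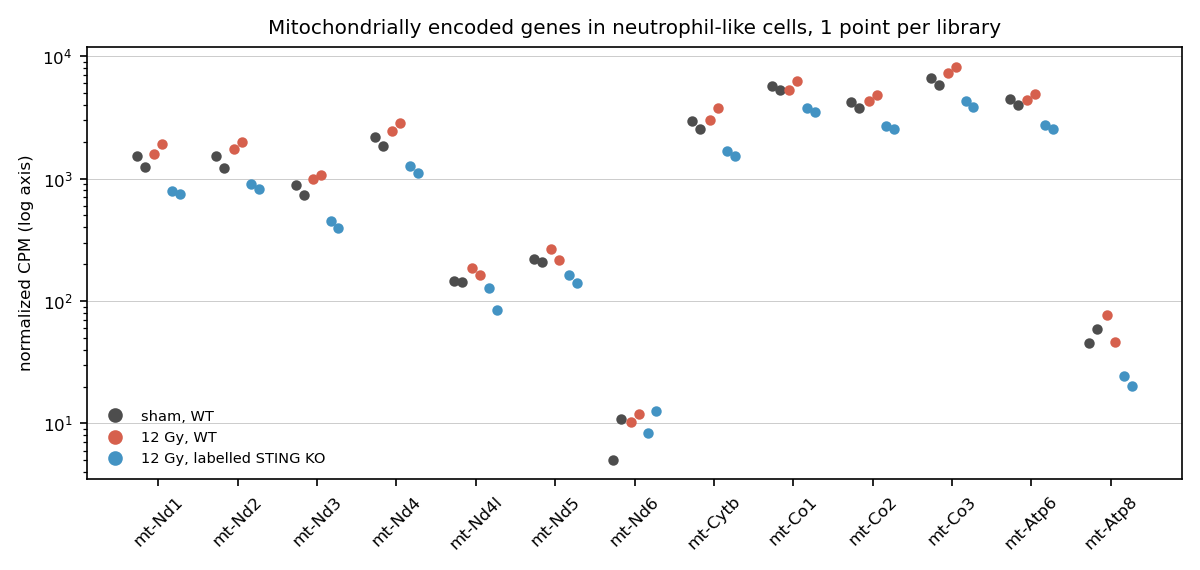
CPM (log scale) of the 13 mitochondrial genes in neutrophil-like cells, 1 point per library, coloured by group. For every gene but mt-Nd6 both libraries labelled STING KO lie below the other 4 (mt-Nd3 at 446 and 391, against 734 to 1072), while the mt-Nd6 groups overlap.

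mt-Nd3 was also the 1 member called in monocyte-like and in endothelial-like cells. In monocyte-like cells, where 0.723% of all genes were called, it stood at 1095 and 1114 CPM in sham, 1192 and 1362 in irradiated wild type, and 851 and 852 in the libraries labelled STING KO (-0.58, SE 0.097, adjusted p 0.0179). In endothelial-like cells, where 0.162% were called, the irradiated wild-type values of 1404 and 1659 compared with 917 and 828 (-0.81, SE 0.10, adjusted p 0.0055). The mitochondrial medians in these classes were -0.24 and -0.27, so mt-Nd3 (mitochondrial genome, 9459 to 9806, plus strand) differed more than the median of the 13. The call in monocyte-like cells was lost without either library labelled STING KO, and without irradiated wild-type replicate 1 the count was 8. In endothelial-like cells it was lost without replicate 2 labelled STING KO, and without irradiated wild-type replicate 1 the count was 10.

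In B cell-like cells 0 members were called between the genotypes, where 0.180% of genes were called and 1597 had an unadjusted p under 0.05. DESeq2 called 5 members, but its share over all genes is not given here, so the 5 are not read against the edgeR share. The values were nevertheless mostly lower in the libraries labelled STING KO: 59 of 80 nuclear members had both of these libraries below both irradiated wild-type libraries, where 26.1% of all genes did, and the nuclear and mitochondrial medians were -0.39 and -0.31 (-0.21 and -0.14 over UMI totals). Atp5md, Atp5k (both small membrane subunits of the ATP synthase) and mt-Nd3 differed by -0.81, -0.77 and -0.72, with adjusted p 0.0680, 0.0747 and 0.0762. As after irradiation, the irradiated wild-type libraries decided the count: without replicate 1, 47 members fell, where 13.3% of all 9425 genes were called, and without replicate 2 the count was 2. Barcodes of this class above the mitochondrial limit made up 31.3% and 32.5% in irradiated wild type and 44.6% and 46.1% in the libraries labelled STING KO. Without the limit, the mitochondrial share of all UMIs was 9.35% and 8.62% in irradiated wild type and 9.23% and 9.04% in the libraries labelled STING KO, so the groups overlapped.

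In macrophage-like cells 3 members were called between the genotypes, where 1.86% of all genes were: Atp5k and Cox8b were lower and mt-Nd6 was higher in the libraries labelled STING KO. A count this small beside that share is not read as a result about the members as a set. Atp5k stood at 319 and 337 CPM in sham, 359 and 333 in irradiated wild type, and 251 and 259 in the libraries labelled STING KO (-0.44, SE 0.080, adjusted p 0.0405). Cox8b stood at 11.1 and 11.9, 10.2 and 9.33, and 5.77 and 5.38 (-0.80, SE 0.15, adjusted p 0.0412). The libraries labelled STING KO lay below the other 4 for both genes. Cardiomyocyte markers in this class summed to 266 and 265 per 1000000 UMIs in sham, 235 and 208 in irradiated wild type, and 185 and 182 in the libraries labelled STING KO, and their part in the Cox8b result was not tested. Of 80 nuclear members 38, and of 13 mitochondrial genes 10, were lower in both libraries labelled STING KO than in both irradiated wild-type libraries, where 27.0% of all genes were. All 3 calls were lost without either irradiated wild-type library or either library labelled STING KO, and over UMI totals Atp5k was not called (-0.32, adjusted p 0.0595). With the replicate number as a block 5 members were called, where 2.71% of all genes were, the other two being Cox7a1 (-0.53, adjusted p 0.0483) and mt-Nd3 (-0.42, adjusted p 0.0463).

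mt-Nd6 encodes a membrane subunit of complex I and is the 1 member on the light strand of the mitochondrial genome (13552 to 14070, minus strand), where its last bases overlap the end of mt-Nd5 (11742 to 13565, plus strand). It was singled out after its values had been seen. In macrophage-like cells it stood at 22.7 and 27.5 CPM in sham, 24.8 and 21.9 in irradiated wild type, and 35.3 and 35.2 in the libraries labelled STING KO (0.60, SE 0.11, adjusted p 0.0459), while the other 12 mitochondrial genes had a median of -0.17. Per 1000000 UMIs of the 13 mitochondrial genes, it took 336 and 378, 375 and 302, and 566 and 585. Over all kept cells the same ratio was 432 and 461 in sham, 478 and 430 in irradiated wild type, and 695 and 697 in the libraries labelled STING KO. Both libraries labelled STING KO lay above the other 4 in all kept cells and in 8 of the 10 named classes plotted, the exceptions being dendritic cell-like and monocyte-like cells. All classes come from the same 6 libraries, so these 8 are not separate comparisons of the groups. Some of these 8 rest on few mt-Nd6 UMIs per library: 4 to 35 in neutrophil-like, 11 to 29 in NK cell-like and 12 to 35 in fibroblast-like cells. In NK cell-like cells the nearest libraries stood at 906 (labelled STING KO) and 896 (sham). As a CPM level, however, mt-Nd6 was called in macrophage-like cells alone. In endothelial-like cells it differed by -0.01 (adjusted p 0.990).

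**Figure D5:**
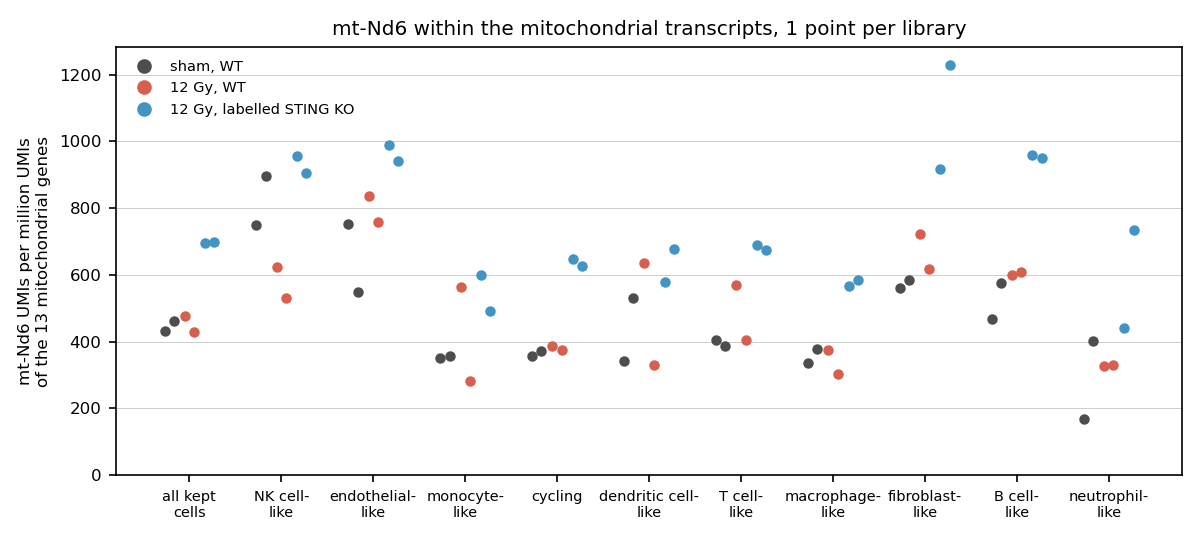
UMIs of mt-Nd6 per 1000000 UMIs of the 13 mitochondrial genes, by class, 1 point per library, coloured by group. The libraries labelled STING KO lie above the other 4 in all kept cells (695 and 697, against 430 to 478) and in 8 of the 10 classes, which all come from the same 6 libraries. Some of these classes hold few mt-Nd6 UMIs per library, such as 4 to 35 in neutrophil-like and 11 to 29 in NK cell-like cells.

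The genes around the chain were read from lists beside the members. In macrophage-like cells after irradiation, 1 of 15 complex I assembly factors tested rose (Ndufaf4, 0.52), 1 of 34 assembly factors of complexes II to V (Uqcc2, 0.43), 1 of 22 genes of mitochondrial DNA expression (Slirp, which stabilizes mitochondrial messenger RNA, 0.45) and 3 of 78 mitochondrial ribosomal proteins (Mrps27, 0.74, Mrps28, 0.48 and Mrps18a, 0.36). Of 9 respiratory genes whose symbols fell outside the pattern, 3 rose: Cycs (0.60), which encodes cytochrome c and went from 53.0 and 65.9 CPM in sham to 88.4 and 91.4, Ndufab1 (0.36) and AA467197. Myc fell (-0.43) among 12 nuclear regulators, and of 82 cytosolic ribosomal proteins 1 rose (Rps27l) and 2 fell (Rps29 and Rpl39l). None of 18 genes of pyruvate dehydrogenase and the citric acid cycle and none of 15 of oxidant handling and uncoupling were called. Of all genes 6.21% were called in this comparison, and the shares of the lists other than the 9 outside genes lie near or below it, so they are no result about those lists. List medians ran from -0.10 to 0.25, beside 0.00 for all genes. In endothelial-like cells 5 of 78 mitochondrial ribosomal proteins rose (Mrpl54, 1.02, Mrps28, 0.84, Mrpl35, 0.66, Mrpl58, 0.63, among them), as did Slirp (0.53), Hif1a (0.69), Idh3a (0.73), Slc25a5 (0.52), AA467197 and 9 of 81 cytosolic ribosomal proteins, where 8.32% of all genes were called in either direction.

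AA467197, whose product is related to the complex IV subunit NDUFA4, had the largest rise among these list genes in macrophage-like cells. It stood there at 4.04 and 4.41 CPM in sham, 12.9 and 12.5 in irradiated wild type, and 6.19 and 7.23 in the libraries labelled STING KO. The radiation difference was 1.58 (SE 0.17, adjusted p 0.0043) and the genotype difference -0.92 (SE 0.15, adjusted p 0.0311). In endothelial-like cells the values were 3.53 and 4.25, 22.7 and 14.8, and 26.6 and 33.2 (radiation 2.23, SE 0.40, adjusted p 0.0063, genotype 0.67, adjusted p 0.284). Within macrophage-like cells its level differed by cluster, and in the interferon-led cluster 15 it stood at 0 and 0 CPM in sham, 29.1 and 56.4 in irradiated wild type, and 125 and 47.3 in the libraries labelled STING KO. AA467197 was 4.35 log2 units higher in neutrophil-like than in macrophage-like cells by the scaled fit, and neutrophil markers in macrophage-like cells summed to 281 and 1122, 175 and 370, and 326 and 468 CPM. Their part in the result was not tested.

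Between the genotypes, 2 of the 9 outside genes were lower in macrophage-like cells of the libraries labelled STING KO, AA467197 and Ndufb1-ps (-0.44), as were Myc (-0.56) and 9 of 82 cytosolic ribosomal proteins, with Rpl38 at -0.47, where 1.86% of all genes were called. In monocyte-like cells Cox17, a copper chaperone of complex IV (-0.62), and 3 of 81 cytosolic ribosomal proteins were lower, where 0.723% of all genes were called. The lists had 0 genes called in neutrophil-like, B cell-like and endothelial-like cells. There, the medians of mitochondrial ribosomal proteins were 0.00, -0.32 and -0.11, and those of cytosolic ribosomal proteins 0.15, -0.23 and -0.11. The inhibitor of the ATP synthase, listed as Atpif1, was not called in any radiation or genotype fit.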

How the data were processed

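CD45+ heart cells were profiled with droplet 3' v3 chemistry in 6 libraries, 2 in each of 3 groups. The authors deposited UMI counts per gene and barcode, made with Cell Ranger 5.0.0 on mm10 per the submitters' processing notes, which also name Seurat 3 without its role. Total counts per library bound the precision, and intervals cover counting error only.

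Barcodes with at least 200 genes and at most 10% mitochondrial UMIs were kept, and doublets were removed at 0.8% per 1000 cells by score, since the automatic threshold marked at most 1 cell in a library. Cells were clustered in scanpy 1.11.5 on 2000 variable genes, none of them a member (30 components, 15 neighbours, Leiden resolution 1). A cluster was named from at least 3 markers at 1.5 times the level of other cells in 10% of its cells, and clusters with markers of several classes were set aside as mixed.

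Counts were summed per library and class where each library had at least 20 cells. edgeR 4.0.16 (filterByExpr, TMM, quasi-likelihood test, R 4.3.3) was fitted across all genes, on all 6 libraries for radiation and genotype (3 residual degrees of freedom) and with library as a block between classes. Calls have Benjamini-Hochberg adjusted p under 0.05 over all genes. CPM values are TMM-scaled within a class and class differences across both classes; sums named "per 1000000 UMIs" and fits over UMI totals are not scaled. Levels are not compared between genes, since 3' tags carry no length. The scripts were tested on simulated data with a fixed spread between libraries and changes in well-counted genes only. Of genes changed 2-fold, 94% were recovered for radiation in macrophage-like cells (12283 genes, 8 false calls) and 92% in neutrophil-like cells (19 false calls). Smaller differences were not simulated, so the recovery does not speak for them.

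Genes were named mainly from the 13 mitochondrial members, fixed anchor subunits and called members, and for class differences from the 6 strongest each way. Not every anchor or strongest member is given a value. Some uncalled members, such as Ndufb2, are named for the size of their difference. The members and lists were chosen with earlier results of these data known. Alternatives covered the mitochondrial limit, clustering, doublets, filter, normalization, DESeq2 1.42.0, the replicate block and leaving out each library. Gene positions are from GENCODE on GRCm38. Protein sequences were not used here.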

Additional observations from a re-analysis of the deposited data

Results flagged for a closer look

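The radiation effect on Cox6b2 differed between endothelial-like and macrophage-like cells by 3.75 on the log2 scale (SE 0.66, edgeR adjusted p 0.0101 over all genes). It rests on 1 and 2 UMIs in the sham endothelial-like sums against 17 and 16 in irradiated wild type.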

How the results depend on the processing

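Counts below are members called. Here, and for most alternative fits in the report, the share of all genes called in the same fit is not given. A change in count is therefore not read as particular to the members. At 5%, 20% and no limit, radiation gave 0, 1 and 1 in macrophage-like cells (2 in the report) and 0, 16 and 20 in endothelial-like cells (8). Genotype gave 0, 7 and 6 in macrophage-like cells (3) and 0, 4 and 7 in endothelial-like cells (1), and radiation by class gave 0, 10 and 11 in endothelial-like cells (1). Genotype in monocyte-like cells gave 0 at 5% (1), and in B cell-like cells 3 with no limit (0). B cell-like cells at 5% were not run, with under 20 cells in a library. Macrophage-like levels at the same limits were 4.13%, 7.87% and 8.81% for the mitochondrial share and 1.45, 2.42 and 2.61 for the log2 ratio, and the nuclear share was 1.60% over nuclear UMIs.

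With no filter on low counts, radiation gave 6 in macrophage-like, 1 in B cell-like and 14 in endothelial-like cells, genotype 11 in macrophage-like, 9 in monocyte-like, 7 in B cell-like and 9 in endothelial-like cells, and radiation by class 1 in B cell-like and 6 in endothelial-like cells. DESeq2 gave 9 for radiation over all kept cells and 4 in endothelial-like cells, and for genotype 4 over all kept cells, 6 in macrophage-like, 2 in monocyte-like, 5 in B cell-like and 5 in endothelial-like cells. At Leiden resolution 0.5, radiation gave 4 in macrophage-like and 2 in endothelial-like cells, genotype 0 in endothelial-like cells and radiation by class 1 in B cell-like cells. With doublets kept, radiation gave 5 in endothelial-like and genotype 1 in neutrophil-like cells (6). With only the 4 libraries compared, radiation gave 0 in macrophage-like and 4 in endothelial-like cells.

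Over UMI totals alone, chosen after seeing the data, genotype gave 0 in neutrophil-like cells (6) and radiation by class 3 in endothelial-like cells (1), and Ndufa7 between neutrophil-like and macrophage-like cells came to -0.0858. The other 17 counts stayed within 1.5 times, but the splits between classes moved as the report gives.

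Within single macrophage-like clusters, an alternative chosen after seeing the data except for the largest (cluster 1), radiation gave 0 in cluster 1, 1 in cluster 4 and 0 in cluster 15, and genotype 5, 0 and 0. AA467197 changed direction there, with a radiation difference of -0.0945 in cluster 3 (adjusted p 0.933) and a genotype difference of 0.84 in cluster 15 (adjusted p 0.587).

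With the replicate number as a block, radiation gave 1 in B cell-like and 5 in endothelial-like cells, and genotype 5 in macrophage-like, 21 in B cell-like and 4 in neutrophil-like cells. Correlations of same-numbered deviations ran from -0.08 to 0.29 over all fits and from 0.12 to 0.17 in macrophage-like cells, where all 3 pairs of groups passed 0.1. The labels say of the number nothing more, so this is a hint from the data.

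Leaving out 1 library gave 54 to 70 between B cell-like and macrophage-like cells, 58 to 63 for endothelial-like, 72 to 77 for monocyte-like and 66 to 72 for neutrophil-like cells. Radiation gave 0 to 1 in macrophage-like, 0 to 15 in B cell-like, 2 to 14 in endothelial-like cells and 0 in the other 3 fits. Genotype gave 0 to 4 in macrophage-like, 0 to 8 in monocyte-like, 0 to 9 in neutrophil-like, 0 to 47 in B cell-like, 0 to 10 in endothelial-like cells and 0 over all kept cells. Radiation by class gave 0 to 6 in B cell-like, 0 to 4 in endothelial-like and 0 to 1 in neutrophil-like cells. Macrophage-like levels ran from 1.48% to 1.52% (nuclear share of all UMIs), 6.60% to 6.73% (mitochondrial share) and 2.13 to 2.19 (log2 ratio). A lone remaining library is assumed to vary like the other groups. The cause was not tested for any of these.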
